A study of Homo sapiens with 39 samples.

Results

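W_1.1 and W_1.2 are 2 clones of WM115, an established human melanoma cell line, and both carry the genotype label R1_del. They give 8 of the 39 libraries of the series, 5 of clone 1.1 and 3 of clone 1.2, assigned by their titles. The pair was chosen for its shared label and its different SOX10 levels. The series measured poly-A selected RNA of melanoma lines in which an enhancer region of SOX10 had been deleted, and it holds 21 WM115 libraries in all. The wild-type WM115 group (label WT, 4 libraries) is used here as a reference level. The labels give the tissue as skin and the cell type as melanoma cells, and they name no treatment or time point. Each group with a deletion is 1 clone, so a difference between the clones is a difference between 2 cell populations that share a deletion label, and clone and deletion cannot be told apart within either. The labels do not say whether the deletion is on one or all copies, nor whether the replicates came from separate cultures. The p-values therefore measure only the spread between libraries, which the limma fit pooled over all WM115 groups.

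SOX10 is a transcription factor of the neural crest that maintains the melanocyte and Schwann cell lineages. In melanocytes it acts with MITF on pigment genes, and in glia on myelin genes. Melanoma cells that lose SOX10 are known to resemble undifferentiated, mesenchymal-like cells with high levels of receptors such as EGFR. MHC class II molecules present peptides to CD4+ T cells, and their transcription depends on the coactivator CIITA.

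Levels are in TPM, a share of the library's transcripts corrected for transcript length. The unit keeps no read counts, so sequencing depth could not be read from the tables. Differences are clone 1.2 minus clone 1.1 on the log2(TPM + 1) scale with the standard error (SE), which understates differences of low genes. A gene was called when its limma p-value, adjusted over 16997 tested genes, was below 0.05 and the difference was at least 1 in size. The mitochondrially encoded share of the TPM was 4.86% to 14.4% in clone 1.1 and 8.75% to 11.8% in clone 1.2 (exact two-sided permutation test, p = 0.75), and 13.7% to 15.6% in wild-type cells. In clone 1.1 the share was below 7.5% in replicates 1 to 3 and above 13% in replicates 4 and 5. Genes at 1 TPM or more numbered 14084 to 14616 in clone 1.1 and 15409 to 15525 in clone 1.2, with no overlap (exact two-sided permutation test, p = 0.0357, the smallest that 5 against 3 libraries can give).

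Replicate 3 of clone 1.2 stood apart from the other two. Across genes, its correlation with them was 0.950 and 0.952, against 0.975 between replicates 1 and 2 and 0.977 to 0.990 among the 5 libraries of clone 1.1. With the clone 1.1 libraries it correlated at 0.889 to 0.896, against 0.949 to 0.959 for replicates 1 and 2. Among 13140 genes for which replicates 1 and 2 lay within 0.5 of each other, replicate 3 was at least 1 lower for 676 and at least 1 higher for 265. Counts below are therefore given with and without it, and its level stands last where 3 levels of clone 1.2 are given. The correlations are over genes, which are not independent, and carry no test.

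SOX10 (ENSG00000100146, chr22:37970686-37987422, minus strand, GRCh38) was lower in clone 1.2 than in clone 1.1 in every library. It stood at 482, 405, 420.0, 342 and 391 TPM in the 5 libraries of clone 1.1. In the 3 libraries of clone 1.2 it stood at 279, 272 and 9.56 TPM, and in wild-type cells at 449 to 553 TPM. The libraries of the clones did not overlap, and replicate 3 lay far below the other two. The difference was -2.13 ± 0.67 (adjusted p = 0.0189), and an exact two-sided permutation test of the TPM gave p = 0.0357. The pair was chosen with its different SOX10 levels known, so the p-values for SOX10 are no support for that difference. Without replicate 3 the difference was -0.56 ± 0.18 (adjusted p = 0.0413), below the minimum size for a call. The call was also lost with the side of 7.5% mitochondrial share as a term, at -1.98 (adjusted p = 0.0628), and among libraries above 7.5%, at -1.98 (adjusted p = 0.203). The transcript SOX10-202, which held most of the SOX10 TPM, stood at 285 to 412 TPM in clone 1.1 and at 214, 217 and 7.89 TPM in clone 1.2.

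Between the clones, 1998 genes (11.8% of those tested) were called, 1446 higher in clone 1.2 (8.51%) and 552 lower (3.25%). The shares of 8.51% and 3.25% are the background for the counts in gene lists below, and no list was tested as a set. By the adjusted p-value alone 6031 genes (35.5%) passed, and 3260 (19.2%) without replicate 3. Without replicate 3 there were 1248 calls (7.34%), of which 1046 were higher (6.15%) and 202 lower (1.19%). Clone 1.2 was above clone 1.1 in every library for 22.6% of genes and below it for 10.8%. Of the higher calls, 69.2% were also called without replicate 3, and of the lower calls 36.1%. Among the called genes named below, these 37 were not called without it: BST2, C4B, CCNE2, CDK1, COL18A1, COL9A3, DCN, DCT, ERBB3, FOS, GFAP, GINS2, GJB1, GPNMB, ID4, IFIT1, IFITM1, INA, IRF9, ISG15, KDELR3, KDR, MIA, MKI67, NES, NFATC2, NGFR, NRCAM, PCDHGB5, PDXP, RAB38, S100B, SDF2L1, SOX10, TAPBP, TNC and UBE2C. All 353 lower genes that were called only with replicate 3 kept their direction without it. This is not independent support, because replicates 1 and 2 were part of the fit that chose these genes. For 5668 genes (33.3% of those tested) the libraries of the clones did not overlap, and 89.4% of the calls were among them. The median over all tested genes was 0.09 with replicate 3 and 0.11 without it. The share of calls that were higher was 72.4%, but 63.6% after median-of-ratios scaling, which moved the median of all genes to -0.01, 56.8% after quantile normalization, which moved it to -0.04, and 59.9% among genes with a mean of at least 5 TPM. In other pairs of clones with a shared deletion label, 2.63% of genes were called between W_4.2 and W_4.1, 6.16% between the A375 clones A_1.2 and A_1.1 and 2.23% between A_4.2 and A_4.1, from other numbers of libraries.

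For most called genes the wild-type mean on the log2 scale lay between the clones. This held for 1151 of the 1446 genes higher in clone 1.2 and for 420 of the 552 lower ones. These genes were chosen for a wide difference between the clones, which favours a wild-type mean between them. The share over all tested genes was not computed, so the counts are description only. Among the genes higher in clone 1.2, the wild-type mean was nearer to clone 1.1 for 919 and nearer to clone 1.2 for 527. Among the lower ones it was nearer to clone 1.1 for 384 and nearer to clone 1.2 for 168. EGFR, a growth factor receptor, is an example of a wild-type level between the clones: it stood at 0.034, 0.04, 0.048, 0.043 and 0.046 TPM in clone 1.1, 15.2, 7.92 and 11.6 TPM in clone 1.2 and 2.24 to 3.08 TPM in wild-type cells. MAGEC2, a cancer-testis antigen, is an example of a wild-type level at that of clone 1.2: it stood at 0.057, 0.021, 0.025, 0.066 and 0.051 TPM in clone 1.1, 70.1, 57.6 and 49.8 TPM in clone 1.2 and 50.2 to 78.9 TPM in wild-type cells. GRM8, a glutamate receptor, was the converse, at 14.9, 10.4, 10.5, 11.1 and 11.8 TPM in clone 1.1, 0.202, 0.013 and 0 TPM in clone 1.2 and 0 to 0.064 TPM in wild-type cells. Its difference was -3.57 ± 0.16 (adjusted p = 3.95e-11).

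Levels in replicates 1 and 2 of clone 1.2 are described here for genes with an extreme level in replicate 3. These sets were chosen after the data were seen, from the levels in replicate 3, wild-type cells and clone 1.1, which largely fixes that the medians of replicates 1 and 2 lie between them, so neither those medians nor the level in replicate 3 is a result. Single genes departed from the medians: SOX9 was higher in replicate 1 than in replicate 3, and ITIH5 was not lower in replicates 1 and 2 than in clone 1.1. Of 61 genes under 0.5 TPM in every wild-type and clone 1.1 library and at 5 TPM or more in replicate 3, replicate 1 held a median of 0.409 of the level in replicate 3 (quartiles 0.234 and 0.613) and replicate 2 held 0.426 (quartiles 0.269 and 0.615). Among these were BEX1 at 262, 106 and 542 TPM and the p53 family gene TP63 at 0.825, 1.82 and 7.65 TPM in replicates 1, 2 and 3. Of 22 genes at 20 TPM or more in every wild-type and clone 1.1 library and under 1 TPM in replicate 3, replicate 1 held a median of 0.418 of the clone 1.1 mean (quartiles 0.250 and 0.593) and replicate 2 held 0.509 (quartiles 0.371 and 0.697). DCT, CD36, EDNRB and HLA-DQA1 were in this set. Whether the 3 libraries differ in the makeup of the cells or in the level per cell cannot be told apart in bulk RNA.

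**Figure D1:**
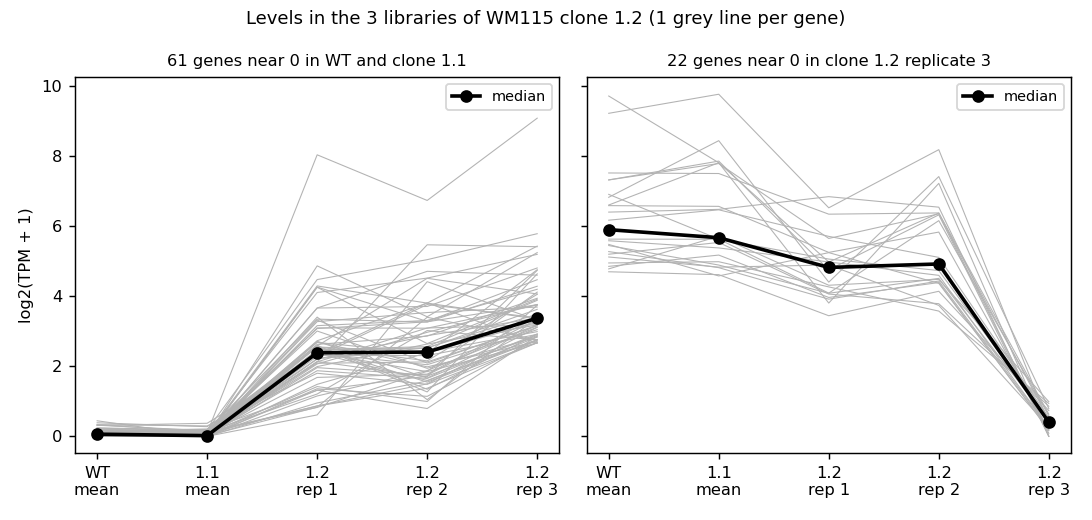
Levels of the 61 genes near 0 in wild-type cells and clone 1.1 (left) and of the 22 genes near 0 in clone 1.2 replicate 3 (right). The x axis gives the wild-type mean, the clone 1.1 mean and the 3 clone 1.2 libraries, and the y axis log2(TPM + 1); each grey line is 1 gene and the black line the median. The genes were chosen for their levels in replicate 3, wild-type cells and clone 1.1, so the ends of the lines are fixed by that choice, and the grey lines spread widely in replicates 1 and 2.

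MHC class II was the one of the 23 gene lists in which every tested gene was called. All 10 were lower in clone 1.2, with and without replicate 3, and none overlapped between the clones. The median difference was -2.30, and -1.53 without replicate 3, against 0.09 and 0.11 over all genes. CIITA, their coactivator, stood at 73.9, 53.3, 56.1, 53 and 51.7 TPM in clone 1.1 and 15.7, 33.2 and 4.26 TPM in clone 1.2, a difference of -2.01 ± 0.38 (adjusted p = 6.58e-04). HLA-DRA, the alpha chain of HLA-DR, stood at 3755, 3014, 2766, 2707 and 3037 TPM in clone 1.1 and 681, 1359.8 and 88.7 TPM in clone 1.2, a difference of -2.80 ± 0.52 (adjusted p = 5.25e-04). HLA-DQA1 stood at 1247, 946, 765, 645 and 756 TPM in clone 1.1 and 91.1, 290.4 and 0.283 TPM in clone 1.2, and its difference was the largest of the list, -4.71 (adjusted p = 0.00158). In each of these genes replicate 2 was the highest clone 1.2 library, replicate 1 came next and replicate 3 was the lowest.

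The remaining class II members followed that order of libraries. HLA-DQB1 was at 652 to 1179 TPM in clone 1.1 and 185, 334 and 1.31 TPM in clone 1.2, and HLA-DRB1 at 2075 to 3462 TPM and 556, 979 and 41.4 TPM. HLA-DPA1 and HLA-DPB1 differed by -2.06 and -2.46. HLA-DMA and HLA-DMB, which load peptides, differed by -1.53 and -1.81, and CD74, the invariant chain, by -2.14. Wild-type means were 55.1 TPM for CIITA, 2003 TPM for HLA-DRA and 597 TPM for HLA-DQA1, all nearer to clone 1.1. Reads of near-identical HLA genes can be split between them by the authors' quantification, so single HLA genes are uncertain. The HLA genes lie on chromosome 6, whose median over all genes differed by -0.05.

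The promoters of 3 class II genes are shown because they hold the letters CTGATTGG, the core of the Y box that the factor NF-Y binds at MHC promoters. Of 8 class II genes with a RefSeq promoter (250 bases before to 50 after the start, GRCh38.p14), 3 held this motif on either strand, against 4.16% of 27305 promoters. In the neural crest and glial list 4 of 12 promoters held it, so it was not confined to class II. The motif was chosen after the data were seen. The TYRP1 promoter is shown because it holds the letters CACATG on both strands, and TYRP1 differed widely within clone 1.2. CACATG and CACGTG, the M-box and E-box read by MITF, were in 9 of 15 promoters of the melanocytic list and in 17.9% of all. Capitals mark the motifs, which lie at -49 to -42 from the start in HLA-DRB1, -91 to -84 in HLA-DQB1, -82 to -75 in HLA-DMA, and -144 to -139 and -11 to -6 in TYRP1. The sequences run 5′ to 3′ on the gene's strand, from chr6:32589799-32590098 (minus), chr6:32666608-32666907 (minus), chr6:32953048-32953347 (minus) and chr9:12693135-12693434 (plus).
HLA-DRB1: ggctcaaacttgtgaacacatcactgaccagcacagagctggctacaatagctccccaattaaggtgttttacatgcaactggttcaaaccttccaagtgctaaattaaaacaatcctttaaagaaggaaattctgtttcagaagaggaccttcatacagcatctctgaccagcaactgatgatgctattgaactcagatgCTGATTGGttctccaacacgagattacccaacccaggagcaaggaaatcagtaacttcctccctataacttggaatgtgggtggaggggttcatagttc
HLA-DQB1: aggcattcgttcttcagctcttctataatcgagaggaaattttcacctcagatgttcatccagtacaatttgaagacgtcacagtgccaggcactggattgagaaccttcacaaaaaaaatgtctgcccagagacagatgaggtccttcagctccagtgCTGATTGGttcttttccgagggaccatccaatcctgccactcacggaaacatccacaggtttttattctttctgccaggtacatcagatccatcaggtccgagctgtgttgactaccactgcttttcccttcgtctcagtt
HLA-DMA: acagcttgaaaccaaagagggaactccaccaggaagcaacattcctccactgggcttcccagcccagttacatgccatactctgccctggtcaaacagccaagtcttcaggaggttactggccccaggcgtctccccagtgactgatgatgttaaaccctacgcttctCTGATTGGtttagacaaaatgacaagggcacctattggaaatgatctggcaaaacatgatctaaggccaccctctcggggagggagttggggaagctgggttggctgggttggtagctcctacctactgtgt
TYRP1: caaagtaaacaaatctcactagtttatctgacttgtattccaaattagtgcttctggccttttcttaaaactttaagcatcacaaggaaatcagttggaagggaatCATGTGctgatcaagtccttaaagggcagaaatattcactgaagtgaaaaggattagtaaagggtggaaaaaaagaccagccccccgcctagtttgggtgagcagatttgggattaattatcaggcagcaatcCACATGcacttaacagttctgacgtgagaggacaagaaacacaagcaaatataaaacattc
A match describes these letters and is no evidence of binding.

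Of 12 tested genes known as SOX10 targets, 8 were called lower in clone 1.2 and none higher, but only 2, EDNRB and MBP, without replicate 3. With only the clones fitted 3 were called lower, and among libraries above 7.5% mitochondrial share 0. The median difference was -1.81, and -0.87 without replicate 3. EDNRB, the endothelin receptor of melanocyte precursors, stood at 222, 194, 142, 156 and 189.8 TPM in clone 1.1 and 80.2, 82.2 and 0.548 TPM in clone 1.2, a difference of -3.04 ± 0.83 (adjusted p = 0.00825) and -1.13 ± 0.28 (adjusted p = 0.00906) without replicate 3. S100B, a calcium-binding protein of glia and melanocytes, stood at 779.5, 504, 563, 485 and 731 TPM and 295, 319 and 4.87 TPM, and its difference went from -2.87 to -0.97 without replicate 3. The neuregulin receptor ERBB3 was at 195 to 249 TPM in clone 1.1 and 116, 106 and 17 TPM in clone 1.2. All 3 libraries of clone 1.2 were below clone 1.1 for these genes, and replicate 3 was far below the other two.

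MBP, a myelin gene, differed by -2.39, MIA by -1.77 and GJB1 by -1.38, and GJB1 overlapped between the clones. TYR at 5.47, 0.82 and 0 TPM, CNP at 116, 109.8 and 91.5 TPM and MITF at 41.4, 88.4 and 6.16 TPM in clone 1.2 were not called, and TYR differed by 0.68. RET was too low to be tested. MITF stood at 96.2, 51, 54.4, 55.6 and 98.1 TPM in clone 1.1, overlapped clone 1.2 and differed by -1.20 ± 0.58 (adjusted p = 0.117).

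Among neural crest and glial genes, 10 of 19 were called lower and 3 higher, and 2 and 2 without replicate 3. The lower calls numbered 6 with only the clones fitted and 1 among libraries above 7.5% mitochondrial share. SOX9, a SOX factor of cartilage and glia, was listed at 0 in every wild-type and clone 1.1 library and at 18.1, 5.27 and 14.1 TPM in clone 1.2, a difference of 3.61 ± 0.42 (adjusted p = 7.20e-06) and 3.45 without replicate 3. CDH19, a cadherin of Schwann cell precursors, was at 83.3 to 102 TPM in clone 1.1 and 24.1, 22.1 and 0.04 TPM in clone 1.2. NGFR, the low-affinity neurotrophin receptor, was at 175 to 426 TPM and 48.6, 78.8 and 3.67 TPM. L1CAM, an adhesion molecule, and GFAP, an intermediate filament of glia, were the other higher calls, by 2.02 and 1.05. SNAI2, which was not called, differed by -0.75 (adjusted p = 0.0464).

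The pigment genes varied within both clones. Of 19 melanocytic genes tested, 4 were called lower and 2 higher, and 1 and 2 without replicate 3. DCT, a melanin synthesis enzyme, stood at 376, 249, 66.2, 119 and 309 TPM in clone 1.1 and 13, 148 and 0 TPM in clone 1.2. TYRP1, another, stood at 112, 53.7, 49.4, 84.3 and 172 TPM and 1.1, 59.2 and 2.13 TPM, so that replicate 2 of clone 1.2 lay within clone 1.1 and replicates 1 and 3 far below it. Their differences were -3.88 ± 1.16 (adjusted p = 0.0141) and -3.55 ± 0.89 (adjusted p = 0.00507), and DCT was not called without replicate 3. RAB38 and GPNMB were the other lower calls, by -1.43 and -1.11, and both overlapped. RAB27A and MLPH, which link melanosomes to the actin motor, were higher, by 1.54 and 1.14, with no overlap. CDK2 was not called, at 104 to 151 TPM in clone 1.1 and 124, 112 and 49 TPM in clone 1.2.

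**Figure D2:**
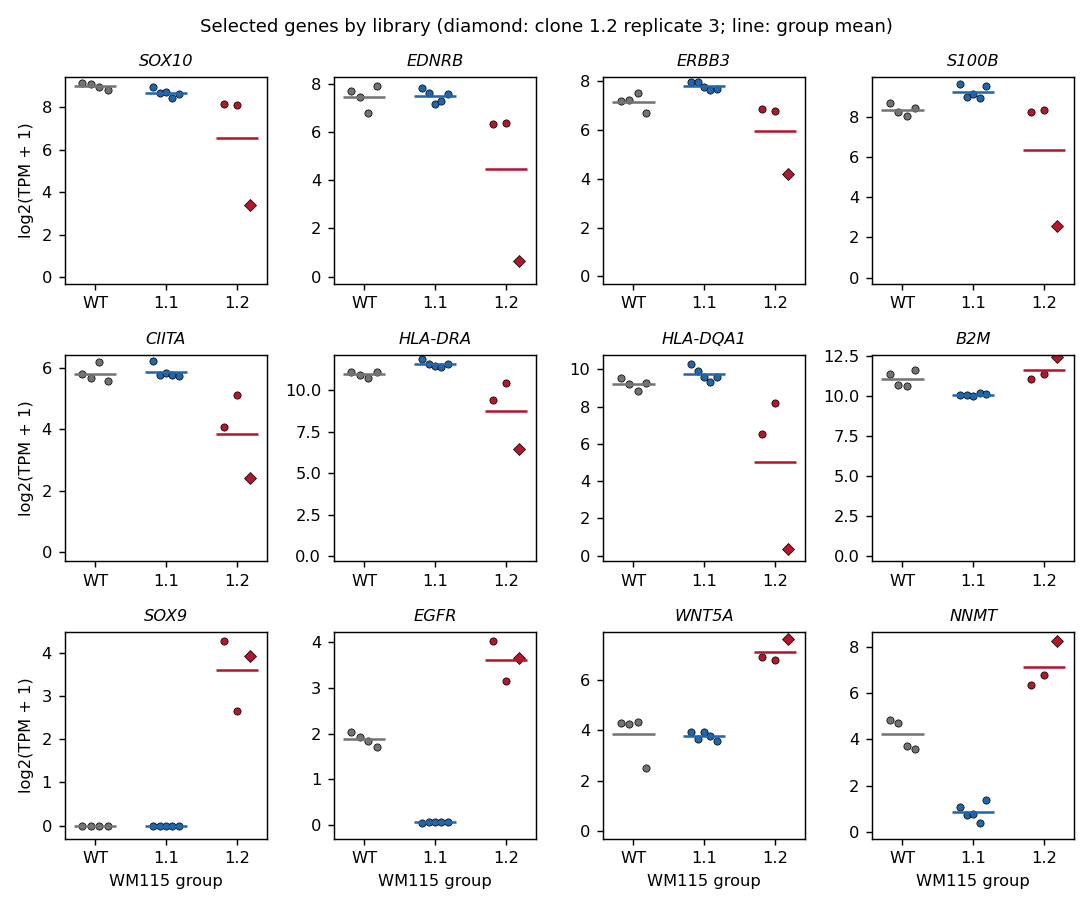
Levels of 12 genes in each library of wild-type WM115 cells (4), clone 1.1 (5) and clone 1.2 (3), with log2(TPM + 1) on the y axis and the group mean as a line; the diamond is replicate 3 of clone 1.2. SOX10, EDNRB, ERBB3, S100B, CIITA, HLA-DRA and HLA-DQA1 are lowest in that library, and SOX9 is at 0 in wild-type cells and clone 1.1. In the other WM115 clones, which are not shown, SOX9 reached 4.925 TPM.

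Several genes of the undifferentiated melanoma state were higher in clone 1.2 than in clone 1.1, with and without replicate 3. Of 21 tested, 6 were called higher and 1 lower, and 6 and 0 without replicate 3, with a median of 0.49 and 0.52. NNMT, a nicotinamide methyltransferase, stood at 1.14, 0.66, 0.707, 0.311 and 1.57 TPM in clone 1.1 and 79.8, 108 and 301 TPM in clone 1.2, a difference of 6.24 ± 0.46 (adjusted p = 5.59e-08). WNT5A, a Wnt ligand linked to invasion, stood at 14.2, 11.4, 14.4, 12.8 and 10.8 TPM and 119, 108 and 196 TPM, a difference of 3.33 ± 0.49 (adjusted p = 6.90e-05). EGFR differed by 3.55 ± 0.28 (adjusted p = 1.44e-07). These 3 genes did not overlap between the clones, and NNMT and WNT5A were highest in replicate 3. Wild-type cells stood at 10.8 to 27.4 TPM for NNMT, between the clones, and at 4.74 to 19.2 TPM for WNT5A. In the other WM115 clones NNMT was at 22.1 to 121 TPM, WNT5A at 12.4 to 116 TPM and EGFR at 2.455 to 10.8 TPM. High levels were thus not confined to clone 1.2.

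PDGFRB, a growth factor receptor, differed by 2.15, and the matrix protein gene CCN1 by 2.94. TNC was the lower call, by -1.14, and -0.53 without replicate 3. VIM was not called, at 4057, 4628 and 2775 TPM in clone 1.2 against 3515 to 6301 TPM. AXL, a receptor often high in such cells, overlapped, at 256, 94 and 96.7 TPM against 87.9 to 223 TPM.

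Signalling lists differed in a few members each, beside 8.51% called higher and 3.25% lower among all tested genes. A single call in a list of this size is not a result about the list. Of 11 AP-1 factors, FOSL2 was called higher, at 47.1, 39.1 and 64.5 TPM in clone 1.2 against 4.86 to 9.66 TPM in clone 1.1. MAF was called lower, by -1.90, as was FOS, at 4.94, 6.26 and 0.999 TPM against 5.94 to 9.6 TPM, and FOS not without replicate 3. FOSL1 was not called, at 470.0, 379 and 187 TPM. Of 16 genes of ERK pathway output, MYC was called, lower at 8.5, 14.9 and 3.55 TPM against 19.5 to 51.3 TPM, and CCND1 was not, at 683, 688 and 242 TPM against 499.9 to 659.5 TPM. Of 13 YAP and TEAD genes, CCN1 and AJUBA were called higher, the second by 1.85, with and without replicate 3.

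The TGF-beta and BMP list had 4 of 18 called higher and 2 lower, and 4 and 1 without replicate 3. BMP7, a secreted ligand, stood at 0.348, 0.684, 0.535, 0.101 and 0.616 TPM in clone 1.1 and 48, 23 and 15.6 TPM in clone 1.2, with 13.8 to 29.2 TPM in wild-type cells, a difference of 4.22 ± 0.31 (adjusted p = 6.36e-08). TGFB2, also a ligand, was at 15, 10.7 and 17 TPM against 0.736 to 1.94 TPM, and SMAD3, which relays the signal, differed by 1.53. ID2 and ID4, targets of BMP signalling, were lower, by -1.86 and -1.85. TGFBI, a TGF-beta target, was not called, at 388, 644 and 265 TPM against 391 to 844 TPM.

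In the acute-phase and NF-kB list, 5 of 16 genes were called higher in clone 1.2, none lower and 11 not called, with and without replicate 3, with a median of 0.90 and 0.98. IL6, a cytokine, stood at 0.543, 0.234, 0.145, 0.283 and 1 TPM in clone 1.1 and 158, 16 and 87.2 TPM in clone 1.2, a difference of 5.46 ± 0.70 (adjusted p = 2.02e-05). Complement C3 stood at 0.727, 0.805, 0.555, 1.12 and 0.237 TPM and 27.2, 31.6 and 170.0 TPM, a difference of 5.02 ± 0.64 (adjusted p = 1.91e-05), and at 4.99 to 57.4 TPM in wild-type cells. IL1B stood at 6.62, 4.95, 6.56, 6.43 and 2.3 TPM and 209, 37.3 and 49 TPM, a difference of 3.60 ± 0.81 (adjusted p = 0.00226). None of these genes overlapped between the clones. NFKBIA, an inhibitor of NF-kB, was higher by 1.64, and ICAM1, an adhesion molecule, was at 140.0, 151 and 267 TPM against 56.5 to 93.3 TPM, whereas the chemokine CXCL8 overlapped, at 12.6 to 75.2 TPM in clone 1.1 and 73.3, 5.27 and 2.9 TPM in clone 1.2, a difference of -1.46 that was not called. CD74 and the class II genes above were lower in the same libraries.

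Of 18 interferon-stimulated genes, 7 were called higher and none lower, but 2 without replicate 3. IFITM1 was at 19.5, 19.1 and 82.9 TPM in clone 1.2 against 6.37 to 13 TPM, BST2 at 3.18, 4.69 and 21.9 TPM against 0.926 to 2.82 TPM and MX1 at 7.14, 7.1 and 10.1 TPM against 1.8 to 3.02 TPM. Wild-type cells stood at 14.7 to 50.8 TPM for IFITM1, 2.97 to 12.1 TPM for BST2 and 4.87 to 11.6 TPM for MX1. For these genes the wild-type mean on the log2 scale was nearer to clone 1.2, and clone 1.1 was below it. MX1 and IFI44 were the 2 calls that held without replicate 3, and ISG15, IFIT1 and IRF9 were called with it. MX2 was not called, at 134, 151 and 94.1 TPM against 131 to 186 TPM. Of 13 MHC class I genes, 3 were called higher, and 2 without replicate 3. B2M, the light chain of class I, stood at 1072, 1097, 1022, 1176 and 1135 TPM in clone 1.1 and 2216, 2695 and 5735 TPM in clone 1.2, a difference of 1.56 ± 0.25 (adjusted p = 1.76e-04) and 1.15 without replicate 3. In wild-type cells B2M stood at 1600 to 3225 TPM, with a log2 mean nearer to clone 1.2. NLRC5, the class I coactivator, differed by 1.46 and TAPBP, which helps load peptides, by 1.23. HLA-B was not called, at 1068, 2137 and 1777 TPM against 1441 to 2366 TPM. B2M lies on chromosome 15, whose median differed by 0.41.

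**Figure D3:**
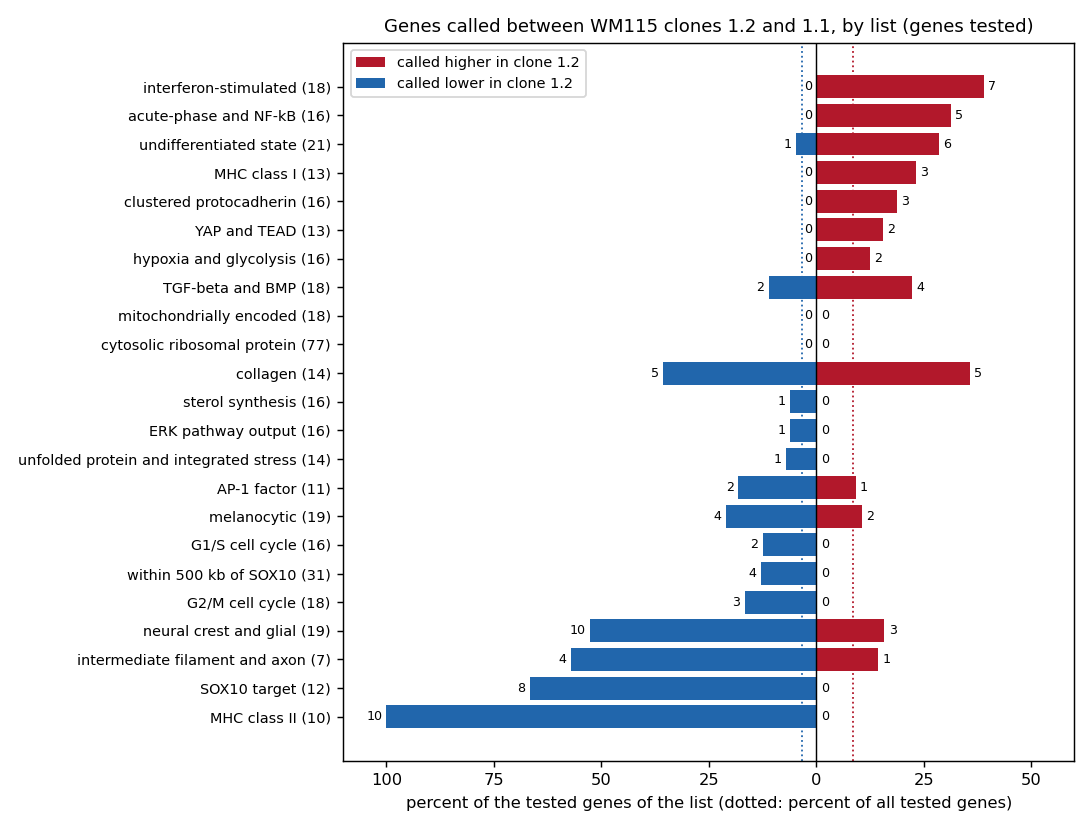
Percent of the tested genes of each list called higher (right) or lower (left) in clone 1.2, with the number of genes at each bar and the percent of all tested genes as dotted lines (8.51% and 3.25%). MHC class II stands at 10 of 10 lower, and no ribosomal protein or mitochondrially encoded gene was called.

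Collagen genes split, with 5 of 14 called higher and 5 lower, and 5 and 3 without replicate 3. The basement membrane chains COL4A1 and COL4A2 were lower, COL4A1 at 67.6, 67.1 and 14.5 TPM in clone 1.2 against 157 to 227 TPM in clone 1.1. The beaded-filament chains COL6A1 and COL6A2 were higher, COL6A2 at 319, 733 and 808 TPM against 99 to 139.9 TPM. COL8A1 differed by 1.83, COL5A1 by 1.60 and COL1A1 by 1.33. COL3A1, COL9A3 and COL18A1 were lower, by -1.23, -1.77 and -1.04. COL1A2, the most abundant uncalled collagen, was at 460.4, 827 and 644 TPM against 549 to 857 TPM.

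In the intermediate filament and axon list, 4 of 7 were called lower and 1 higher, and 2 and 0 without replicate 3. NEFM, a neurofilament subunit, was at 3.05, 3.55 and 2.39 TPM in clone 1.2 against 12.1 to 16 TPM in clone 1.1, and 1.86 to 3.85 TPM in wild-type cells. NRCAM, NEFL and NES were the other lower genes, NRCAM and NEFL by -2.12 and -1.35 and NES at 36.4, 41.3 and 17 TPM against 50.7 to 72.4 TPM, and INA the higher one, by 1.53. Of 16 clustered protocadherins, 3 were called higher, PCDHGA2, PCDHGA1 and PCDHGB5, by 1.96, 1.47 and 1.08. Transcripts of this cluster share exons, so its single members are uncertain. PCDHGC3 was not called, at 142, 129.9 and 143 TPM against 137 to 209 TPM.

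A few cell cycle genes were called lower in clone 1.2 with replicate 3, and none without it. Of 16 G1/S genes, CCNE2 and GINS2 were called lower, and of 18 G2/M genes, CDK1, UBE2C and MKI67, with none in either list without replicate 3. CDK1 stood at 79, 134, 134, 130.3 and 74 TPM in clone 1.1 and 78.6, 53.8 and 25.7 TPM in clone 1.2, and all 5 genes overlapped. TYMS and CCNB1 were not called, at 402, 287 and 123 TPM and 231, 144 and 124 TPM in clone 1.2. The median of the G2/M list was -0.82, and -0.36 without replicate 3.

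Metabolic and stress lists held few calls, beside 8.51% called higher and 3.25% lower among all tested genes. Of 16 sterol synthesis genes 1 was called lower, and none without replicate 3, and FDPS was not called, at 280.1, 252 and 182 TPM against 242 to 287 TPM. Of 16 hypoxia and glycolysis genes VEGFA, an angiogenic factor, was called higher at 105, 249 and 177 TPM against 31.6 to 82.1 TPM, as was EGLN3, by 1.62. LDHA was not called, at 1019, 1665 and 1543 TPM against 1170.5 to 2525 TPM. Of 14 genes of the unfolded protein and integrated stress responses SDF2L1 was called lower, by -1.11, but by -0.60 and not called without replicate 3, and HSP90B1 was not, at 736, 878 and 665 TPM against 817 to 1176 TPM. None of 77 cytosolic ribosomal protein genes and none of 18 mitochondrially encoded genes was called. RPS21 was at 6562, 7348 and 7439 TPM against 5910.4 to 7329 TPM and MT-CO2 at 13397, 15579.9 and 18021 TPM against 7068 to 21001 TPM.

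Of 31 tested genes within 500 kb of SOX10, 4 were called lower and none higher. They were SOX10 itself, BAIAP2L2 at 4.88, 3.51 and 0.957 TPM against 8.11 to 16 TPM, PDXP at 24.9, 36.5 and 8.63 TPM against 47.9 to 60.2 TPM, and KDELR3 at 39.5, 45.1 and 17.1 TPM against 62.8 to 117 TPM. Over all of chromosome 22, 33 of 400 tested genes (8.25%) were called lower, against 3.25% of all tested genes. The count near SOX10 includes SOX10 itself, and whether it departs from that of the chromosome was not tested. Without replicate 3 only BAIAP2L2 of the 31 was called. LGALS1 was the most abundant of those not called, at 1442, 1409 and 1391 TPM against 1367 to 2503 TPM.

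The highest and lowest genes were ranked by the smaller of their differences with and without replicate 3, so the order can depart from that of the differences given. The 8 highest genes by this measure were low or near absent in clone 1.1. MGST1, a microsomal glutathione transferase, stood at 0, 0.185, 0, 0 and 0 TPM in clone 1.1 and 268, 194 and 516 TPM in clone 1.2, a difference of 8.18 ± 0.74 (adjusted p = 5.49e-07). VIPR1, a peptide hormone receptor, stood at 0, 0, 0.035, 0.01 and 0 TPM and 95.7, 63.8 and 399.8 TPM, and its antisense gene was also detected, so without stranded counts they cannot be told apart. G0S2, an inhibitor of lipolysis, stood at 1.43, 2.21, 1.49, 1.09 and 1.05 TPM and 246, 212 and 248 TPM. BEX1, EEF1A2, NNMT, MAGEC2 and PGAM2 completed the 8 highest, with differences of 7.86, 6.12, 6.24, 5.84 and 5.96. MGST1, BEX1, VIPR1, NNMT and PGAM2 were highest in replicate 3, whereas EEF1A2 was highest in replicate 2.

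Genes under 0.1 TPM in every library of clone 1.1 and at 5 TPM or more in every library of clone 1.2 numbered 17, led by VIPR1, MAGEC2 and TNFRSF11B, the decoy receptor of bone remodelling, at 44.3, 32.9 and 185 TPM. TNFRSF11B differed by 6.02, and by 5.27 without replicate 3, just under 5.29 for PGAM2. No gene met the reverse. By the smaller difference the 8 lowest genes were GRM8, FGL2, AC011294.1, BIRC7, FZD4, COL5A3, CD36 and KIF6. HLA-DQA1 was lower than these with replicate 3, but at -2.37 without it, against -2.43 for KIF6. CD36, a fatty acid receptor, stood at 413, 284, 178, 323 and 536 TPM in clone 1.1 and 20.2, 170.1 and 0.733 TPM in clone 1.2. FZD4, a Wnt receptor, was at 66.2 to 109 TPM and 8.93, 22.1 and 1.35 TPM, a difference of -3.39 ± 0.46 (adjusted p = 3.41e-05). FGL2 differed by -3.99, AC011294.1 by -3.33, KIF6 by -2.71, BIRC7 by -2.56 and COL5A3 by -2.48. For GRM8, FGL2, BIRC7 and COL5A3 the wild-type means of 0.0375, 5.16, 0.286 and 1.67 TPM were nearer to clone 1.2.

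**Figure D4:**
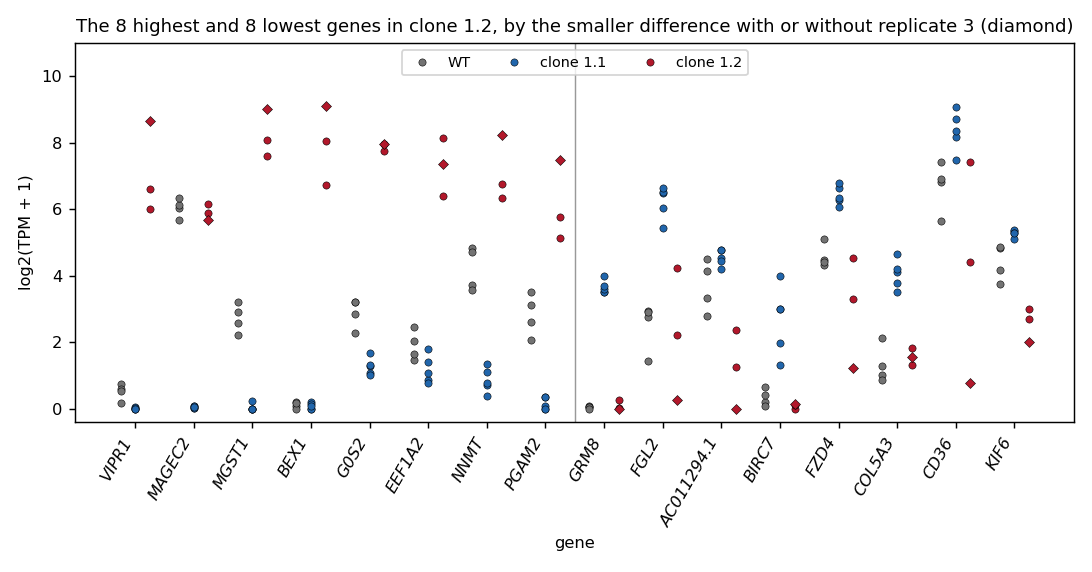
The 8 genes highest (left) and the 8 lowest (right) in clone 1.2 against clone 1.1 by the smaller of the differences with and without replicate 3, with log2(TPM + 1) on the y axis and 1 point per library of wild-type cells (grey), clone 1.1 (blue) and clone 1.2 (red, replicate 3 as a diamond). MAGEC2 in wild-type cells lies at the level of clone 1.2.

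Where replicates 1 and 2 lay within 0.5 of each other, replicate 3 was lowest against them in ITIH5, NFATC2, EDNRB, GAS7 and S100B. ITIH5, a protein of the hyaluronan matrix, stood at 101, 84.6, 98.8, 82 and 75.1 TPM in clone 1.1 and 114, 92.3 and 0 TPM in clone 1.2, so replicates 1 and 2 were not below clone 1.1. NFATC2, a transcription factor, was at 170.0, 181 and 2.29 TPM in clone 1.2 and GAS7 at 140.2, 154 and 1.78 TPM. The complement genes C1S and C4B were among the 5 highest there, C1S at 8.17, 11.2 and 77.6 TPM in clone 1.2 against 0.23 to 2.26 TPM in clone 1.1, and C4B at 1.57, 1.42 and 20.4 TPM against 0.218 to 1.43 TPM. C4B has a near-identical copy, so its level is uncertain. The remaining 3 of the 5, 5_8S_rRNA, AC242498.1 and RNU6-42P, are small or unnamed RNA loci, were listed at 0 in replicates 1 and 2 and overlapped clone 1.1.

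Whole chromosomes differed in their median level. Per library, the median over the tested genes of a chromosome was taken as the deviation in log2(TPM + 1) from each gene's mean over the 8 libraries. Chromosome 3 differed by 0.51, with 5 clone 1.1 libraries from -0.23 to -0.16 and clone 1.2 libraries at 0.36, 0.20 and 0.38. Chromosome 15 differed by 0.41, with clone 1.2 libraries at 0.33, 0.22 and 0.22, and chromosome 7 by 0.31. Chromosome 22, which holds SOX10, differed by -0.38, with clone 1.1 libraries from 0.08 to 0.20 and clone 1.2 libraries at -0.06, -0.07 and -0.57. Chromosome 8 differed by -0.23. These 5 were chosen for the size of their difference. The libraries of the clones did not overlap on them or on 7 others (1, 11, 14, 16, 17, 19 and 20), whose differences were -0.09 to 0.18. For these 12 of 23 chromosomes the exact two-sided permutation test gave p = 0.0357, adjusted to 0.0685, so none passed 0.05 in a design of this size.

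The differences ran along the length of the chromosomes. With the tested genes of a chromosome cut by position into 4 equal groups, the median gene difference was, in order, 0.53, 0.51, 0.53 and 0.48 on chromosome 3 and 0.39, 0.36, 0.37 and 0.42 on chromosome 15. On chromosome 22 it was -0.37, -0.32, -0.29 and -0.45. On chromosome 8 the last group was at -0.06 against -0.25, -0.33 and -0.30 in the first 3, and on chromosome 7 the second was at 0.46 against 0.22, 0.29 and 0.22. Against wild-type cells, the median gene differences of clones 1.1 and 1.2 were -0.32 and 0.18 on chromosome 3 and -0.39 and 0.03 on chromosome 15. They were -0.15 and 0.16 on chromosome 7, 0.41 and 0.16 on chromosome 8, and -0.06 and -0.45 on chromosome 22. Chromosome 8 was thus above wild-type cells in both clones. Copy number was not measured here.

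The calls were unequal in the same directions. On chromosome 3, 155 of 920 genes were called higher and 15 lower, and on chromosome 22, 10 of 400 higher and 33 lower. The 3 most abundant genes on chromosome 3 were RPL32, RPL15 and the pentose phosphate enzyme gene TKT. TKT was called, at 3219, 2983 and 2956 TPM in clone 1.2 against 1067 to 1528 TPM in clone 1.1, while RPL32 and RPL15 differed by 0.45 and 0.61. On chromosome 22, TIMP3, a protease inhibitor, was called, at 809, 1036 and 508 TPM against 1587 to 2889 TPM. The cytokine MIF differed by -0.88, and RPL3 overlapped at 1766, 1749 and 1376 TPM against 1402 to 1924 TPM. Without replicate 3 the median gene difference on chromosome 22 went from -0.35 to -0.20 and that on chromosome 3 from 0.51 to 0.47. SOX10 itself then differed by -0.56. WNT5A and VIPR1 lie on chromosome 3 and EGFR and IL6 on chromosome 7. They were named for their large differences, so that these exceed the chromosome medians is no result.

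**Figure D5:**
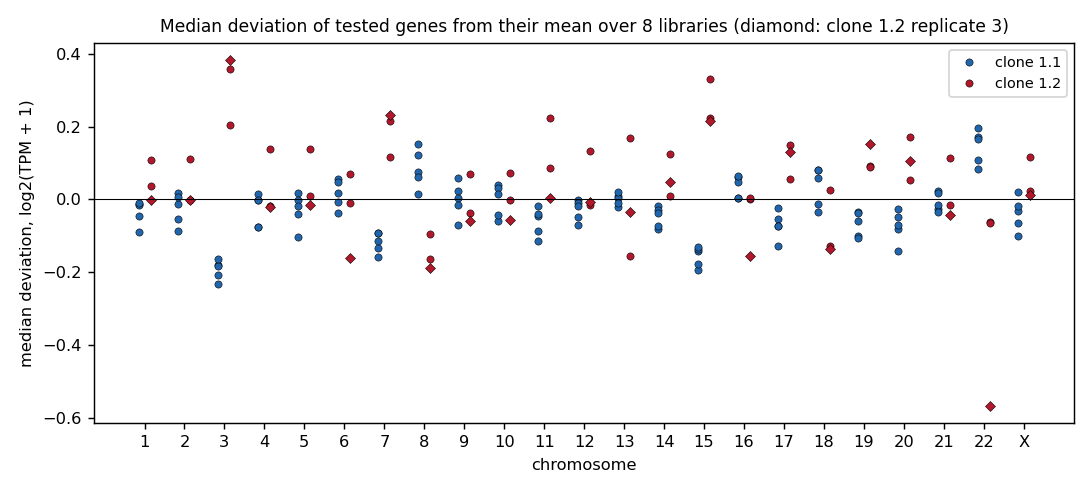
Median deviation of the tested genes of each chromosome from their mean over the 8 libraries, in log2(TPM + 1), with 1 point per library of clone 1.1 (blue) and clone 1.2 (red, replicate 3 as a diamond). Chromosomes 3, 7 and 15 lie higher and 8 and 22 lower in clone 1.2 than in clone 1.1, and replicate 3 stands alone at -0.57 on chromosome 22.

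Markers of other cell types were checked. The summed TPM of 8 melanocyte lineage markers was 1120 to 1865 in clone 1.1 and 643, 936 and 29.4 in clone 1.2, against 1044 to 2890 in wild-type cells. Of 9 fibroblast markers, 3 were called higher (PDGFRB, THY1, COL1A1) and 2 lower (DCN, COL3A1), and their summed TPM was 587 to 900.2 in clone 1.1 and 507, 885 and 707 in clone 1.2, nearly all of it COL1A2. Of 8 keratinocyte markers 5 were tested. TP63 was called higher, and SFN, which was not called, differed by 0.77 with no overlap. KRT5, KRT1 and DSG3 were below 0.1 TPM in all 8 libraries. Of 7 endothelial markers 3 were tested. PECAM1 was called higher, at 2.23, 4.9 and 12 TPM in clone 1.2, and KDR lower. TEK was below 0.1 TPM, and the sum was 3.18 to 5.49 in clone 1.1 and 4.18 to 16.5 in clone 1.2. CDH5, which was not tested, was listed at 0 in clone 1.1 and at 0.319, 0.631 and 4.04 TPM in clone 1.2. Of 7 leukocyte markers only 2 were tested and none was called. CD3E and ITGAM were below 0.1 TPM, and the sums of 232 to 348 and 421 to 759 were nearly all CD68. CD68 differed by 0.88 with no overlap, below the minimum size for a call. The keratinocyte sums were 74.5 to 103 and 81.5 to 88.4. Their part in the results above was not tested.

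RNA of the series' other line was looked for through 27 genes with a mean of at least 20 TPM in wild-type A375 cells and under 0.5 TPM in wild-type WM115 libraries. Their summed TPM was 0.613 to 1.02 in clone 1.1, 44.3, 33.6 and 86.3 in the 3 libraries of clone 1.2 and 2292 to 2682 in wild-type A375 cells. In replicate 3, 19 of the 27 were below 0.5 TPM and 5 were at 5 TPM or more. Replicates 1 and 2 of clone 1.2 each correlated slightly more with the mean of the 3 WM115 libraries titled W_1.3 and labelled R4_del, at 0.978 and 0.979, than with the mean of their own clone, at 0.974 and 0.976, which includes replicate 3.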

How the data were processed

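RNA-seq tables of 39 libraries were used, with values as TPM per gene and per transcript, deposited by the authors. Per the labels' protocols, poly-A RNA was converted with random hexamers, and per the submitters' processing notes DRAGEN and GRCh38 were used. The version, the annotation and strand handling are not given in the sources used here. In each, 6 columns that matched no sample were not used. TPM keeps no depth, so precision comes from the replicates alone.

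Genes at 1 TPM or more in at least 3 WM115 libraries (16997) were fitted with limma 3.58.1 (R 4.3.3) on log2(TPM + 1), with 1 coefficient for each group over all 21 WM115 libraries and a variance trend, and p-values were adjusted by Benjamini-Hochberg. The script was tested on simulated data. Positions came from GENCODE for 58394 of 60671 gene identifiers, and promoters from RefSeq GRCh38.p14. The clones and the 23 gene lists were chosen with earlier results of these data known. Genes were named by rule: SOX10 and MITF, up to 3 called members and the most abundant uncalled member of each list, the 8 highest and 8 lowest genes (by the smaller difference) that were called the same way with and without replicate 3 of clone 1.2 and did not overlap, genes near 0 in one clone only, the 5 each way where that replicate lay farthest from the other two, and the 3 most abundant genes of the extreme chromosomes. Further list members were named after their values were seen. Some members that the rule names are not reported here.

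Alternatives were the pseudocount (0.1), filters, scaling, variance model, libraries in the fit, mitochondrial share and the replicate number as a block. No pairing by number was seen: same-numbered deviations correlated at -0.10, 0.03 and -0.09, and differently numbered ones at -0.25 to 0.20. So few pairs cannot settle whether the numbers pair the samples.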

Additional observations from a re-analysis of the deposited data

Results flagged for a closer look

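In 10 of 257 groups of gene levels tested, 1 library lay apart from the rest of its group by Dixon's test, which flags about 1 in 20 groups by chance. In wild-type cells, replicate 4 was low for WNT5A at 4.74 TPM, against 18.1 to 19.2 TPM in the others, and for IL1B at 14.7 TPM, against 73.3 to 79.6 TPM. Replicate 3 was high for FZD4 at 33.6 TPM, AJUBA at 20.1 TPM and NES at 56 TPM, against at most 21.2, 9.25 and 27.2 TPM. COL6A2 was high in wild-type replicate 1 at 108 TPM, and RPL15 was low in replicate 2 at 2107 TPM. In clone 1.1, CIITA and MX1 were high in replicate 1 at 73.9 and 3.02 TPM, against at most 56.1 and 2.03 TPM. MIF was high in replicate 2 of clone 1.1 at 2778 TPM, against at most 2293 TPM. Groups of 3 libraries, clone 1.2 among them, were not tested.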

How the results depend on the processing

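The 5 chromosome differences kept their direction among genes with a mean of at least 5 TPM and with each library left out in turn. No other alternative was run for them, so their dependence on scaling was not tested. Against 1998 genes called, separate fits called 1116 with a mean of at least 5 TPM, 361 with the replicate block in a fit of the 2 clones, 1211 without replicate 3 of clone 1.2 when only the clones were fitted (chosen after seeing the data), and 6031 with no minimum difference. Lower calls numbered 225 among libraries of high mitochondrial share, against 552. Leaving out 1 library gave 1248 to 2469, the lowest without replicate 3 of clone 1.2. The SOX10 difference was -1.98 (adjusted p = 0.0628) with the side of 7.5% mitochondrial share as a term, -1.98 (adjusted p = 0.203) among libraries above it, -2.13 (adjusted p = 0.124) with only the clones fitted, -2.23 (adjusted p = 0.207) with the replicate block and -0.56 (adjusted p = 0.0243) without replicate 3 in the fit of the clones, in none of which it was called. Leaving out 1 library gave -2.92 to -0.56. The replicate block left 0 of 10 MHC class II genes, 0 of 12 SOX10 targets and 0 neural crest and glial genes called lower. It left 2 acute-phase and NF-kB and 3 undifferentiated state genes called higher. Whether the numbers pair the samples was not settled. The count of targets was 0 among libraries of high mitochondrial share, 3 with only the clones fitted and 2 without replicate 3 in either fit. Leaving out each library gave 2 to 9 targets and 10 class II genes each time. Of the class II genes, 8 were called among libraries of high mitochondrial share and 9 with only the clones fitted. The causes were not tested. Differences of genes that were not called turned with the mitochondrial share as a term to 0.37 for 5_8S_rRNA, 0.090 for RPL3, 0.050 for AXL, 0.0090 for COL1A2, 0.17 for LDHA and -0.31 for MT-CO2. They turned among libraries of high mitochondrial share to 0.13 for RPL3, 0.14 for AXL, 0.033 for TGFBI, 0.11 for COL1A2, 0.064 for HLA-B, 0.23 for LDHA and -0.35 for MT-CO2. They turned after quantile normalization to -0.11 for RPS21. They turned without replicate 3 of clone 1.2 in the fit of the clones to 0.22 for ITIH5, 0.050 for RPL3, 0.29 for CCND1, 0.069 for AXL and 0.025 for FDPS. Leaving out 1 library moved such differences across 0, from -2.04 to 0.47 for 5_8S_rRNA, -3.20 to 0.22 for ITIH5, -0.14 to 0.050 for RPL3, -0.14 to 0.52 for FOSL1, -0.46 to 0.29 for CCND1, -0.63 to 0.089 for AXL, -0.36 to 0.063 for COL1A2, -0.38 to 0.12 for HLA-B, -0.28 to 0.025 for FDPS, -0.071 to 1.28 for TYR and -0.017 to 0.011 for ITGAM. The unknown depth limits all low genes. The main fit pooled the spread of each gene over all WM115 groups, so it can understate a wider spread in clone 1.2. That clone has only 3 libraries, or 2 without replicate 3.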
